A study of Mus musculus with 2 samples.

Results

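Enzyme genes of serine, folate-bound one-carbon, asparagine and proline synthesis were followed through single cells of mouse gastruloids. They were Phgdh, Psat1, Psph, Shmt1, Shmt2, Mthfd1, Mthfd1l, Mthfd2, Asns and Aldh18a1, 10 of the 32285 genes in the deposited counts. The genes were taken by symbol from a list chosen by pathway with the UMI levels of both libraries already known, so the differences between the libraries are given as a description. Gastruloids are aggregates of embryonic stem cells that begin to lay down a body axis in culture. About 300 cells, either of the wild-type R1 embryonic stem cell line or of R1 cells labelled Sp5/8dko, were plated per well in serum-free N2B27 medium. Sp5 and Sp8 encode zinc-finger transcription factors that act in Wnt signalling. All aggregates of both lines received 3 µM CHIR, which blocks the kinase GSK3 and so turns on Wnt signalling, from day 2, and were pooled 12 hours later at day 2.5. The series title names the formation of primary cilia as the study's subject. Each genotype is 1 line and 1 library of pooled aggregates, and the labels do not say how the mutant line was made or whether it is a clone. No difference between the libraries therefore has a replicate check. All intervals below cover counting error only and are 95% intervals unless stated otherwise.

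Serine is made from a glycolytic intermediate in a short chain of steps, and serine then gives a one-carbon unit to the carrier tetrahydrofolate. Mitochondria and cytosol each hold a set of enzymes for moving that unit: the mitochondrial set ends in formate, and the cytosolic set uses it for purines, thymidylate and methyl groups. Rapidly dividing embryonic cells use this route heavily. Several of its genes, and Asns, are known targets of Atf4, the transcription factor of the amino acid and integrated stress responses.

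The counts are UMIs, molecular tags that let copies of 1 captured RNA be counted once, from the 10x Genomics 3′ chemistry. A barcode was used as a cell if it had at least 2500 UMIs, at least 1000 genes and at most 10% mitochondrial UMIs. This left 8707 cells with 97157331 UMIs in the library labelled wild type, against 10587 cells with 97644169 UMIs in the one labelled double knockout. The median cell held 10571 and 8637 UMIs, and 3275 and 2884 genes, respectively. The libraries shared 27 cell barcodes. Levels are given as CPM, a gene's UMI count scaled to 1000000 UMIs of a library's kept cells. A log2 difference sets the double knockout label over the wild type label, with a pseudocount of 0.5 UMIs added to each count before scaling. Paired values always give the library labelled wild type first. Because 3′ counts were used and no scale per transcript length was available, levels are compared within a gene and not between genes. The targeted genes went against the labels: Sp5 was at 109.1 CPM in the library labelled wild type, against 478.7 CPM in the one labelled double knockout, and Sp8 was at 20.8 and 40.1 CPM. The labels do not say which part of either gene was deleted, so 3′ counts may lie outside it, and every direction below is between libraries as labelled. Primitive streak markers summed to 613.7 and 840.7 CPM, against 68.9 and 55.6 CPM for naive pluripotency markers and 12.9 and 7.46 CPM for neural markers, and 1 of these markers was at 0 UMIs in a library: Cer1, a streak marker, in the library labelled wild type (at most 0.038 CPM), against 2 UMIs in the other.

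Asns, Mthfd2, Psat1, Shmt2 and Phgdh were all higher in the library labelled double knockout, by 1.55-, 1.46-, 1.43-, 1.38- and 1.34-fold. The other 5 genes differed by less than a log2 size of 0.25 between the libraries. The 10 genes together held 93995 UMIs (967.5 CPM) in the library labelled wild type, against 122874 UMIs (1258.4 CPM) in the one labelled double knockout, a log2 difference of 0.38 (interval 0.37 to 0.39). A log2 difference of at least 0.25 was reached by 5 of the 10 genes, beside 3.13% of all 7607 genes with a mean level of at least 10 CPM. None of the 10 was at -0.25 or lower, where 4.67% of all genes lay. At a log2 difference of at least 0.5 stood 3 of the 10, Asns, Mthfd2 and Psat1, beside 0.421% of all genes. All 10 passed the minimum level, and their median log2 difference was 0.30, beside -0.02 for all genes. Of the genes on either side of the 0.25 threshold, Phgdh lay nearest inside it at 0.42 and Psph nearest outside it at 0.17.

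**Figure D1:**
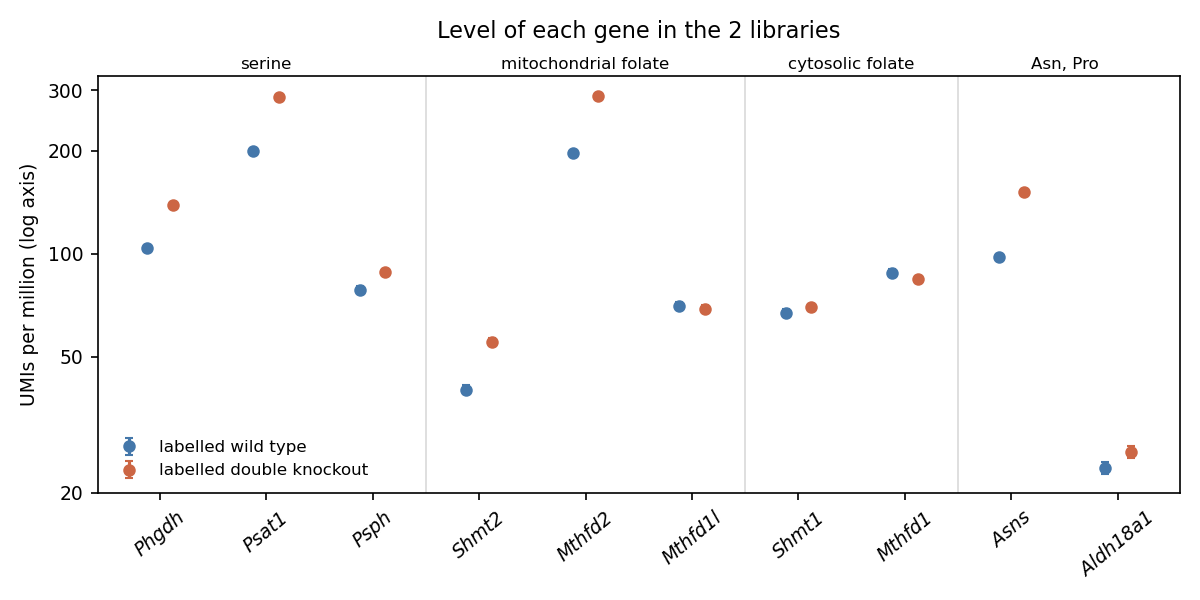
Level of each of the 10 genes in CPM (vertical axis, logarithmic) in the library labelled wild type and the library labelled double knockout, with exact Poisson 95% intervals, ordered by role. The libraries are well apart for Phgdh, Psat1, Shmt2, Mthfd2 and Asns, and close together for Shmt1, Mthfd1 and Mthfd1l.

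The serine synthesis genes came first in the pathway and differed unequally. Phgdh, which oxidises 3-phosphoglycerate in the committed step (ENSMUSG00000053398, chromosome 3, 98313170 to 98339990, minus strand), was at 103.8 CPM in the library labelled wild type, against 138.9 CPM in the one labelled double knockout. Its log2 difference was 0.42 (0.38 to 0.46). Psat1, the transaminase of the next step (ENSMUSG00000024640, chromosome 19, 15904678 to 15947337, minus strand), was at 200.2 and 286.4 CPM, a log2 difference of 0.52 (0.49 to 0.54). The intervals of the libraries did not overlap for either gene. Psph, the phosphatase that releases serine (ENSMUSG00000029446, chromosome 5, 129765558 to 129787449, minus strand), was at 78.5 and 88.5 CPM, a log2 difference of 0.17 (0.13 to 0.22). Thus the first and middle enzymes of the chain differed more between the libraries than the last. Coordinates are those of GENCODE M21 on GRCm38, the assembly that mm10 stands for.

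Among the mitochondrial folate enzymes, 2 of 3 were higher in the library labelled double knockout. Shmt2, which moves a one-carbon unit from serine to tetrahydrofolate in mitochondria (ENSMUSG00000025403, chromosome 10, 127517123 to 127522444, minus strand), was at 40.1 and 55.3 CPM, a log2 difference of 0.46 (0.40 to 0.52). Mthfd2, the mitochondrial dehydrogenase and cyclohydrolase that acts on that unit (ENSMUSG00000005667, chromosome 6, 83305691 to 83325908, minus strand), was at 197.3 and 288.1 CPM, a log2 difference of 0.55 (0.52 to 0.57). Mthfd1l, the mitochondrial synthetase that releases formate (ENSMUSG00000040675, chromosome 10, 3973118 to 4167081, plus strand), was at 70.5 and 69.2 CPM. Its log2 difference was -0.03 (-0.08 to 0.02), an interval that holds 0 and lies wholly under those of Shmt2 and Mthfd2.

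The cytosolic folate enzymes stood at nearly the same level in both libraries. Shmt1, the cytosolic counterpart of Shmt2 (ENSMUSG00000020534, chromosome 11, 60788104 to 60811718, minus strand), was at 67.3 and 69.8 CPM, a log2 difference of 0.05 (0.0029 to 0.10). Mthfd1, a single cytosolic protein with the dehydrogenase, cyclohydrolase and synthetase activities (ENSMUSG00000021048, chromosome 12, 76255298 to 76319803, plus strand), was at 88.1 and 84.1 CPM, a log2 difference of -0.07 (-0.11 to -0.02). Summed over both genes, the cytosolic level was 155.4 and 153.9 CPM, a log2 difference of -0.01 (-0.05 to 0.02).

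Asns, which makes asparagine from aspartate and glutamine (ENSMUSG00000029752, chromosome 6, 7675169 to 7693254, minus strand), had the largest difference of the 10 genes. It was at 98.0 CPM in the library labelled wild type, against 151.9 CPM in the one labelled double knockout, a log2 difference of 0.63 (0.59 to 0.67). Aldh18a1, the mitochondrial enzyme that starts proline synthesis from glutamate (ENSMUSG00000025007, chromosome 19, 40550257 to 40588463, minus strand), was at 23.6 and 26.4 CPM, a log2 difference of 0.16 (0.08 to 0.24). Hence the glutamine-using enzyme for asparagine differed more between the libraries than the enzyme for proline. Several of the genes overlap annotated genes on the other strand, among them Psph with Cct6a, Shmt2 with Ndufa4l2 and Shmt1 with Smcr8. Whether the counting used strand is not given in the sources used here, so reads of such neighbours cannot be told apart.

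Barcodes with 1 to 100 UMIs, which are taken to hold free RNA, showed the same direction for the 5 genes past the threshold. In them Asns was at 105.5 and 169.0 CPM, Mthfd2 at 134.4 and 204.9 CPM, Psat1 at 144.0 and 205.4 CPM, Shmt2 at 37.8 and 49.1 CPM, and Phgdh at 126.2 and 169.8 CPM. These levels moved with the libraries as the levels in cells did, and the part of free RNA in the difference was not tested.

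The promoters of Asns, Mthfd2, Shmt2 and Shmt1 are printed because Asns carries the one match to an Atf4-type element among the 10 genes, and the other 3 set the mitochondrial genes past the threshold beside the cytosolic Shmt1. Each line holds the 250 bases before a RefSeq transcript start, from RefSeq on GRCm38.p6, 5′ to 3′ on the gene's strand. Capitals mark the core of the C/EBP-ATF composite element, TGATGNAA, and the GC box, GGGCGG, the element bound by Sp family factors, each on either strand. All 10 genes were matched by symbol in the RefSeq table.
Asns, chr6:7693210-7693459, minus strand: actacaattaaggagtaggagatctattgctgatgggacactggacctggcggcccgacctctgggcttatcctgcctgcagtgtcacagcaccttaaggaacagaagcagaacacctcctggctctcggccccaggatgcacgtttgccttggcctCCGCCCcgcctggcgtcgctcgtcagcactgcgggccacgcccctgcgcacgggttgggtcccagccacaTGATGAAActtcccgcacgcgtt
Mthfd2, chr6:83317605-83317854, minus strand: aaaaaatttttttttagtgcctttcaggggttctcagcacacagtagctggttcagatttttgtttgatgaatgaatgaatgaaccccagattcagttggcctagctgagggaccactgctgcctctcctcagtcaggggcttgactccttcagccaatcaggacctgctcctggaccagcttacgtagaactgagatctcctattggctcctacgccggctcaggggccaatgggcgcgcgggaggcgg
Shmt2, chr10:127522445-127522694, minus strand: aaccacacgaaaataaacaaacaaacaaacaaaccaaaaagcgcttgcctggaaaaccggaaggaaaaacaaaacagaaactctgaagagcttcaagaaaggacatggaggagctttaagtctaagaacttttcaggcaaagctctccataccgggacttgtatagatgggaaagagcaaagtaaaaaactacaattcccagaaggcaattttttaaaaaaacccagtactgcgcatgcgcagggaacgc
Shmt1, chr11:60811266-60811515, minus strand: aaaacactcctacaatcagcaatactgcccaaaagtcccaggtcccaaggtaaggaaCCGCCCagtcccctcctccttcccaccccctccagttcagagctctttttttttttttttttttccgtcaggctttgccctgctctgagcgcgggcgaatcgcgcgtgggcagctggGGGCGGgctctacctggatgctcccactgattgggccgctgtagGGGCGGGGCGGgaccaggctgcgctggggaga
The composite core was found in the window of 1 of the 10 genes, Asns, as TGATGAAA 23 bases before the start. It was found in 3.90% of all 27018 genes, or 3.45% of all 32841 promoter windows of that length. The GC box was found in at least 1 window of 7 of the 10 genes and in 35.4% of all 27018 genes. Shmt1 held 4 GC boxes, of which a pair overlap, and Psph held 3. Phgdh, Mthfd2 and Shmt2, all higher in the library labelled double knockout, held none in these windows. Asns and Psat1, also higher there, held 1 each. The E-box CACGTG was found in the window of Aldh18a1 alone among the 10 and in 6.86% of all genes, or 6.02% of all windows. A match is a match of letters and not evidence that a factor binds there.

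The difference was next followed into cell states. Cells of both libraries were clustered together without the 10 genes, and 6 of the 9 clusters held at least 100 cells of each library. Cluster 1 was led by Rhox5, Usp26 and Tdgf1 and held 2374 cells of the library labelled wild type, against 3730 of the one labelled double knockout. Cluster 2 was led by Irx3, Gbx2 and Meis2 (3159 and 2266 cells), and cluster 4 by Nfib, Cdx2 and Pkdcc (1204 and 495 cells). Cluster 3 was primitive-streak-like, led by Foxa2, Adamts9 and Gsc (1280 and 3321 cells), and cluster 6 was neural-like, with Sox1 among its leading genes (223 and 236 cells). Cluster 5 (327 and 358 cells) was shallow, with a median of 3676 and 3227.5 UMIs and 0.23% mitochondrial UMIs in each library, and stayed unnamed.

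Asns, Mthfd2, Psat1, Phgdh and Shmt2 were higher in the library labelled double knockout in 6 of the 6 clusters, each time by a log2 difference of at least 0.25. Asns differed by 0.50 in cluster 5, its lowest, to 0.92 in cluster 4, where its level was 96.5 and 182.0 CPM. Mthfd2 differed by 0.36 in the primitive-streak-like cluster (240.0 and 307.2 CPM) to 0.97 in the neural-like cluster (115.8 and 226.6 CPM). The range over the clusters was 0.43 to 0.77 for Psat1, 0.37 to 0.65 for Phgdh and 0.27 to 0.46 for Shmt2, whose intervals held 0 in clusters 5 and 6. Summed over the 10 genes, the difference ran from 0.29 in the primitive-streak-like cluster to 0.60 in the neural-like cluster. So the genes that differed between whole libraries also differed inside each of these groups of cells, although the clusters took unequal shares of the libraries.

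The remaining genes varied around their whole-library values. Psph and Aldh18a1 were above 0 in 6 of 6 clusters but past 0.25 in 2 each, with ranges of 0.05 to 0.43 and 0.01 to 0.35. Shmt1 ranged from -0.10 to 0.26 and Mthfd1 from -0.10 to 0.35, each past 0.25 in 1 cluster. Mthfd1l ranged from -0.04 to 0.15 and was past 0.25 in none. In clusters 1, 2 and 3, which held most cells, 5 of the 10 genes were past 0.25 beside 3.13%, 3.83% and 4.22% of all genes. In clusters 4, 5 and 6 the counts were 6, 7 and 8 of 10, beside 10.2%, 19.1% and 15.6% of all genes. At -0.25 or lower stood none of the 10 in clusters 1 to 6, beside 4.13%, 4.78%, 5.64%, 13.4%, 23.9% and 22% of all genes. With each cluster given the same weight in both libraries, 5 of the 10 genes were past 0.25, beside 2.34% of all genes.

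**Figure D2:**
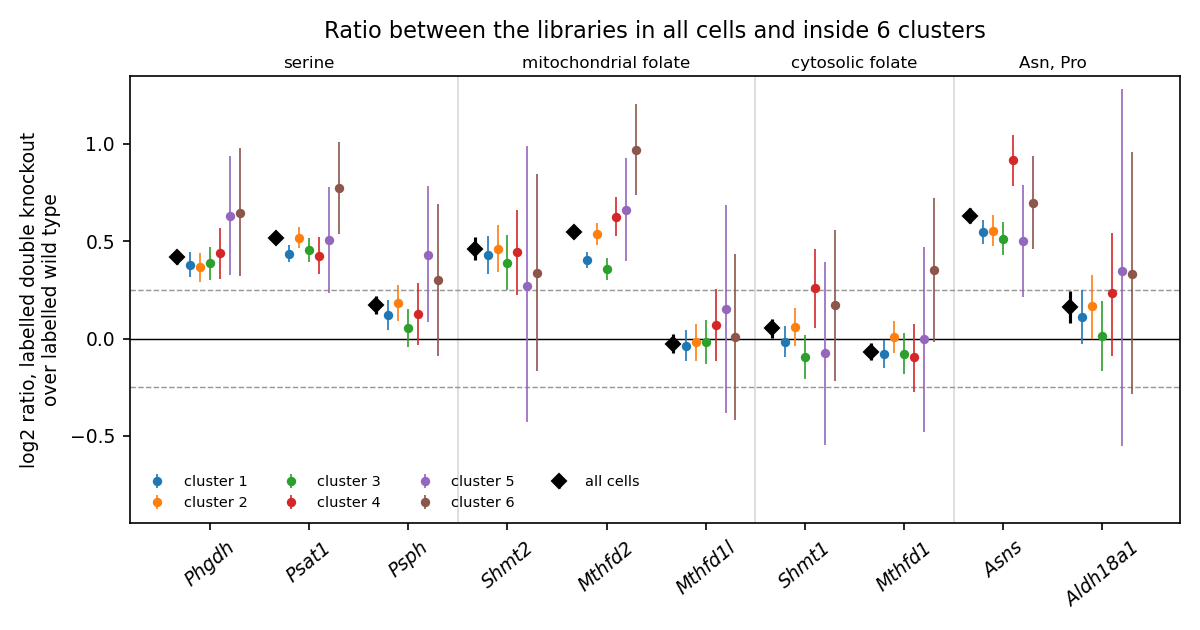
Log2 difference of each gene, the double knockout label over the wild type label, in all cells (diamonds) and in each of clusters 1 to 6 (circles), with 95% counting intervals and dashed lines at 0.25 and -0.25. The points of Phgdh, Psat1, Shmt2, Mthfd2 and Asns all lie above 0.25, while those of Shmt1, Mthfd1 and Mthfd1l lie between -0.10 and 0.35.

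Mitochondrial and cytosolic enzymes of the same reactions were then set against each other inside each library, where the library total cancels. The UMIs of Shmt2, Mthfd2 and Mthfd1l over those of Shmt1 and Mthfd1 came to 1.98 (1.94 to 2.02) in the library labelled wild type, against 2.68 (2.63 to 2.73) in the one labelled double knockout. The log2 difference of these ratios was 0.44 (0.40 to 0.48). Shmt2 over Shmt1, the serine step, was 0.596 and 0.792, a log2 difference of 0.41 (0.33 to 0.49). Mthfd2 and Mthfd1l over Mthfd1, the steps from methylene to formate, were 3.04 and 4.25, a log2 difference of 0.48 (0.43 to 0.53). Both ratios were therefore higher in the library labelled double knockout.

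The formate-releasing gene, Mthfd1l, did not follow the other mitochondrial genes. Mthfd1l over Mthfd1 was 0.80 and 0.82, a log2 difference of 0.04 (-0.03 to 0.11), while Mthfd2 over Mthfd1 was 2.24 and 3.43, a log2 difference of 0.61 (0.56 to 0.66). Inside mitochondria, Mthfd2 over Mthfd1l was 2.80 and 4.17, a log2 difference of 0.57 (0.52 to 0.63). Mthfd2 thus stood apart from the mitochondrial Mthfd1l about as much as from the cytosolic Mthfd1.

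The mitochondrial over cytosolic ratio was larger in the library labelled double knockout in 6 of the 6 clusters, by log2 differences of 0.37 to 0.57. Among these 6, the lowest ratios were those of cluster 2, at 1.72 and 2.23, and of the neural-like cluster, at 1.74 and 2.34. The highest were those of the primitive-streak-like cluster, at 2.26 and 2.94. Outside the 6, a naive-pluripotent-like cluster of 79 and 76 cells stood at 1.87 and 2.12. Its log2 difference was 0.18 (-0.23 to 0.59), an interval that holds 0. Cells scored as S phase gave 2.00 and 2.68, and cells scored as G2/M gave 1.97 and 2.69. An extraembryonic-endoderm-like cluster of 16 cells in each library went the other way, at 1.88 (49 over 26 UMIs) and 0.909 (30 over 33 UMIs), and its interval for the log2 difference (-2.12 to 0.02) holds 0.

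**Figure D3:**
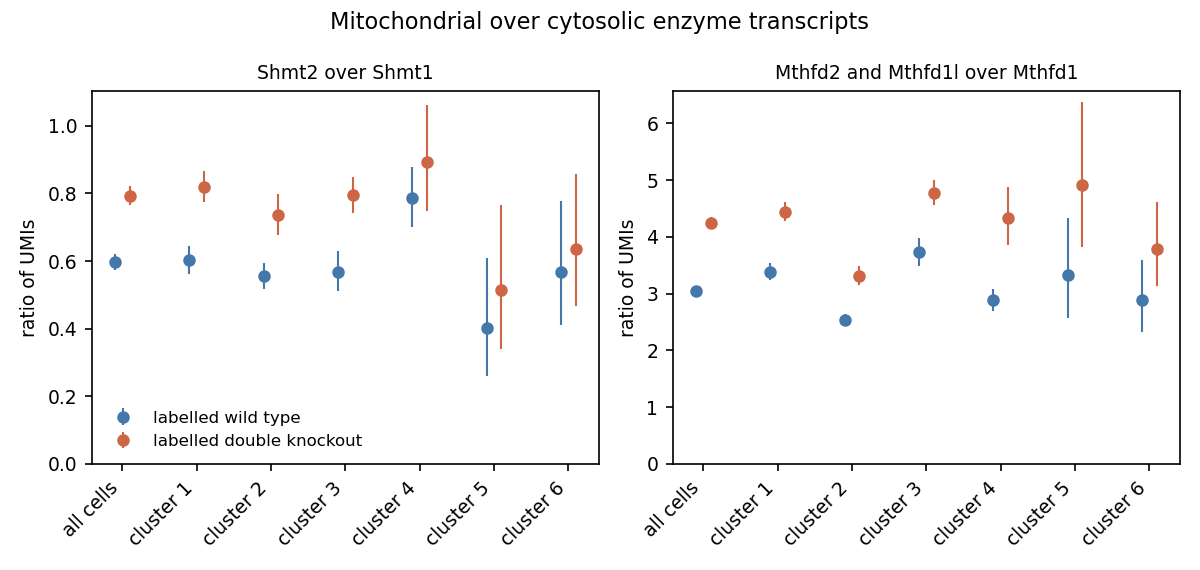
Ratio of UMIs of Shmt2 over Shmt1 (left) and of Mthfd2 and Mthfd1l over Mthfd1 (right) in all cells and in clusters 1 to 6 of each library, with exact 95% binomial intervals. The library labelled double knockout lies above the one labelled wild type at every point, with overlapping intervals for Shmt2 over Shmt1 in clusters 4, 5 and 6 and for the Mthfd ratio in clusters 5 and 6.

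Within a library, cell states also differed in these genes, and the 10 genes did not move as 1 block. Cluster 2, led by Irx3 and Gbx2, was low: 5 of the 10 genes were at a log2 ratio of -0.25 or lower against the library's other cells in each library, beside 5.57% of all genes in the library labelled wild type, against 6.24% in the one labelled double knockout. Mthfd2 was at 158.6 and 230.2 CPM there, a log2 ratio to other cells of -0.47 and -0.40, and Asns at 80.3 and 118.0 CPM, a log2 ratio of -0.43 and -0.45. Mthfd1 and Mthfd1l stood close to the other cells, with log2 ratios of 0.04 and 0.13 for Mthfd1 and -0.04 and -0.02 for Mthfd1l.

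The neural-like cells were lower still in serine synthesis genes. Phgdh was at 64.2 and 100.6 CPM in them, a log2 ratio to other cells of -0.70 and -0.47, and Psat1 was at 118.7 and 202.9 CPM, a log2 ratio of -0.76 and -0.50. Asns went the other way, at 118.7 and 192.7 CPM, a log2 ratio of 0.29 and 0.35. Of the 10 genes 8 and 6 were at -0.25 or lower, in a cluster where 20.8% and 20.1% of all genes were.

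The small naive-pluripotent-like cluster of 79 and 76 cells, with Dppa3 among its leading genes, was high in Asns and in both serine hydroxymethyltransferases. Asns was at 242.3 and 313.0 CPM, a log2 ratio to other cells of 1.33 and 1.06. Shmt1 was at 132.4 and 125.8 CPM, a log2 ratio of 0.99 and 0.87, and Shmt2 at 68.7 and 100.3 CPM, a log2 ratio of 0.80 and 0.88. Phgdh was lower there, at 61.2 and 104.8 CPM, a log2 ratio of -0.75 and -0.40. Psat1, at log2 ratios of -0.19 and -0.04, and Psph, at -0.01 and 0.21, had intervals that hold 0. In that cluster 5 and 4 of the 10 genes were at 0.25 or higher, beside 24.6% and 24.9% of all genes.

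The shallow cluster 5 and the smallest unnamed cluster were also high in Asns. In cluster 5 Asns was at 135.7 and 191.9 CPM, a log2 ratio to other cells of 0.48 and 0.35, while Mthfd1 was at 60.1 and 60.0 CPM, a log2 ratio of -0.55 and -0.48. The median log2 ratio of all genes in that cluster was -0.45 in each library. That smallest cluster, number 0, of 45 and 89 cells, with Ddit3, Nupr1 and Pmaip1 among its leading genes, held Asns at 205.3 and 241.3 CPM, a log2 ratio of 1.08 and 0.68. In it 3 of the 10 genes were at 0.25 or higher in each library, beside 31% and 26.6% of all genes, so the count is near the background. Its cells had medians of 0.38% and 0.60% mitochondrial UMIs, against 3.81% and 4.07% over all cells.

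Cluster 4, with Cdx2 and T among its leading genes, was higher than the other cells in Phgdh and Psph. Phgdh was at 122.3 and 165.5 CPM there, a log2 ratio to other cells of 0.28 and 0.27, and Psph at 98.2 and 107.2 CPM, a log2 ratio of 0.38 and 0.29. Psat1 was at 237.9 and 319.7 CPM, a log2 ratio of 0.29 and 0.17. In each library 3 of the 10 genes were at 0.25 or higher, beside 13.8% and 14% of all genes. Mthfd2 stood close to the other cells, at log2 ratios of -0.07 and 0.02.

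Asns and Phgdh thus lay on opposite sides of the other cells in the neural-like and the naive-like cells. Over the 12 combinations of the 6 clusters and 2 libraries, Pearson's r of log2 CPM was 0.95 between Psat1 and Mthfd2, 0.92 between Mthfd1 and Mthfd1l and 0.91 between Phgdh and Psph. It was -0.42 between Mthfd1 and Asns, the lowest of all pairs. These 12 points share 2 libraries and their depths, so r is a description.

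**Figure D4:**
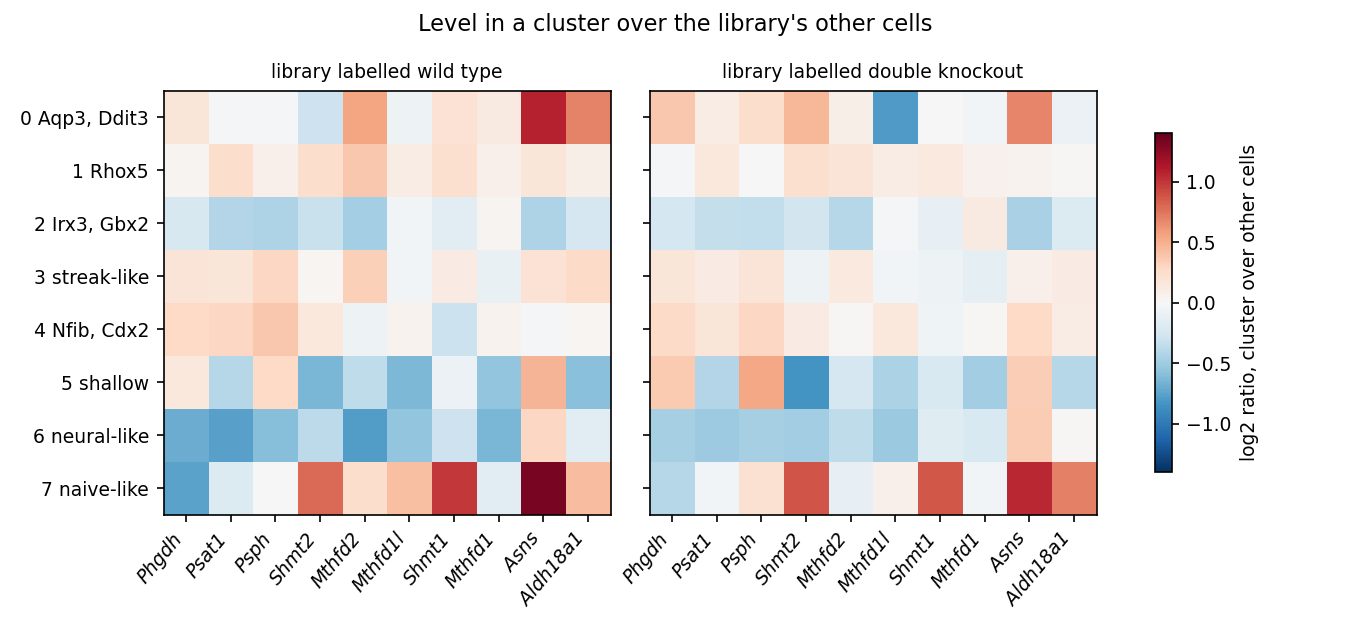
Log2 ratio of each gene in each cluster over the other cells of the same library, for clusters 0 to 7, shown as a colour scale for the library labelled wild type and the library labelled double knockout. Cluster 2 and the neural-like cluster 6 are low for Phgdh, Psat1 and Mthfd2, and the naive-pluripotent-like cluster 7 is high for Asns, Shmt1 and Shmt2.

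The genes most like the mean standardised profile of the 10 over the same 12 points were Bcat1 (r = 0.98), Cpt2 (0.96), Rp9 (0.95), Trh (0.94), Eomes (0.93), Stip1 (0.92), Aars (0.92), Lars (0.92), Pgp (0.90) and Otx2 (0.90). Bcat1 transfers the amino group of branched-chain amino acids, and Eomes and Otx2 encode transcription factors of the streak and anterior epiblast. Each of the 10 genes is itself part of that mean, so its r cannot be set against those of other genes. Among the 10, Psat1 (0.98) and Mthfd2 (0.96) followed the mean most closely and Asns (0.34) least. Atf4 was at 0.84, Chac1 at 0.83, Trib3 at 0.77 and Ddit3 at -0.09.

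Single cells were compared after each cell had been thinned to 2500 UMIs, since the median depth differed between the libraries. The 10 genes together gave a mean of 2.38 UMIs per cell in the library labelled wild type, against 3.12 in the one labelled double knockout. No UMI of any of the 10 was found in 12.0% (Clopper-Pearson 11.3 to 12.7) and 5.96% (5.52 to 6.43) of cells, and 5 or more in 11.4% (10.7 to 12.1) and 22.0% (21.2 to 22.8). The ratio of variance to mean was 1.26 and 1.25. Mthfd2 had the widest spread of the single genes, with a ratio of 1.20 and 1.16. A Mthfd2 UMI was found in 35.0% and 48.2% of thinned cells, or 76.4% and 84.1% before thinning, and an Asns UMI in 22.1% and 31.2%, or 60.5% and 68.6% before thinning. The libraries thus differed in the share of cells with no UMI as well as in the share with many.

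The stress state was examined next, through Ddit3, Trib3 and Chac1, which act downstream of Atf4. A thinned UMI of any of the 3 was found in 571 cells of the library labelled wild type, against 1107 of the one labelled double knockout. The 10 genes summed to 1182 CPM in those cells and 951.8 CPM in the others of the library labelled wild type, a log2 ratio of 0.31 (0.28 to 0.35). In the library labelled double knockout they summed to 1445 and 1236 CPM, a log2 ratio of 0.22 (0.20 to 0.25). Taken over all cells, those with an effector UMI were therefore higher in these genes in both libraries. The mean log2 ratio over the libraries, 0.27, was 0.16 (0.09 to 0.24) inside cluster 2 and 0.06 (-0.22 to 0.31) inside the neural-like cluster, where the interval holds 0. With the small cluster led by Ddit3 among others in place of effector UMIs, it was 0.15 (0.02 to 0.27) at a clustering resolution of 0.3 and 0.14 (-0.0033 to 0.27) without the listed genes in the clustering.

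Mthfd2 differed most, at 289.0 CPM with and 190.6 CPM without an effector UMI in the library labelled wild type, and at 360.7 and 279.4 CPM in the library labelled double knockout. Its log2 ratios were 0.60 (0.53 to 0.67) and 0.37 (0.32 to 0.42). Psph, which differed between the libraries by a log2 size under 0.25 (0.17), stood at log2 ratios of 0.29 and 0.30. Shmt1 (0.02 and -0.08) and Mthfd1 (0.10 and 0.05) had intervals that hold 0. In the library labelled wild type 4 of the 10 genes were at 0.25 or higher, beside 3.35% of all genes, and in the library labelled double knockout 3 of the 10, beside 1.31%. Cells with an effector UMI had a median of 11023 and 8951 UMIs, against 10543.5 and 8596 in the others.

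Cells with a thinned Asns UMI were higher in Mthfd2 by log2 ratios of 0.237 and 0.245, and in Psat1 by 0.18 and 0.15, while Mthfd1 was at -0.02 and -0.07. None of the 9 other genes reached 0.25, beside 0.394% and 0.184% of all genes, or -0.25, beside 0.302% and 0.368%. Cell cycle phase separated the genes little. Shmt1 was at 72.6 and 72.7 CPM in cells scored as S phase and 63.5 and 67.6 CPM in cells scored as G2/M, a log2 ratio of 0.19 and 0.11. The summed level of the 10 had log2 ratios of 0.05 and -0.01, and none of the 10 reached 0.25, beside 3.51% and 3.4% of all genes, or -0.25, beside 7.59% and 6.63%. The libraries had nearly equal shares of cells scored as S phase, 48.4% and 47.1%.

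**Figure D5:**
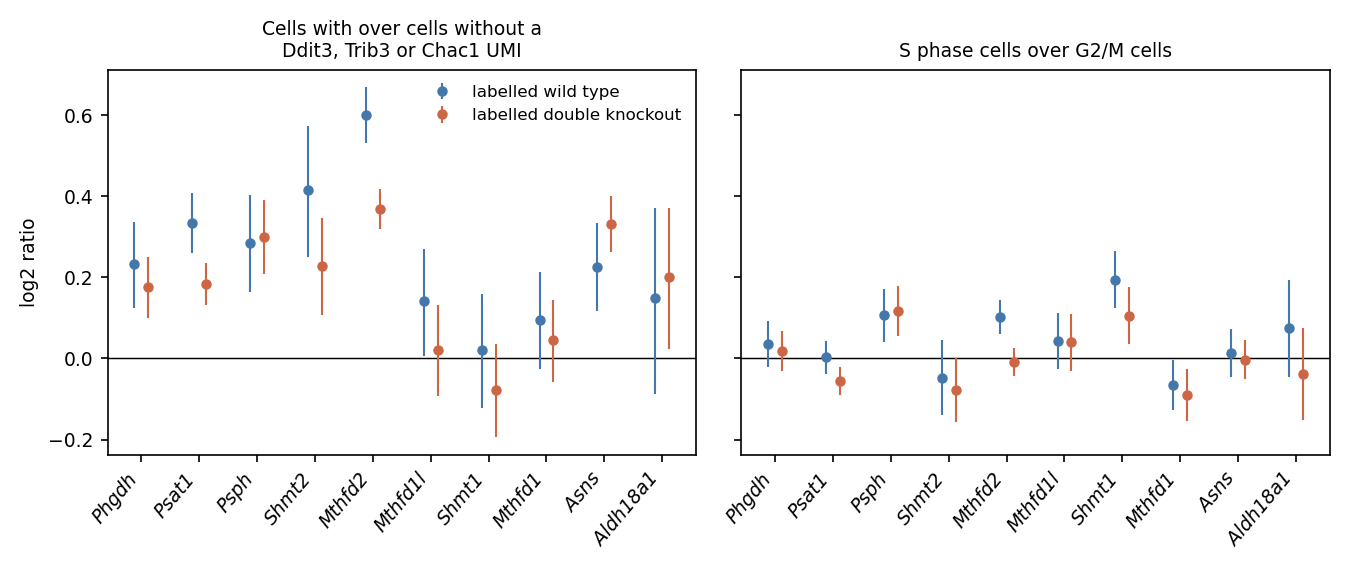
Log2 ratio of each gene between cells with and without a thinned Ddit3, Trib3 or Chac1 UMI (left) and between S phase and G2/M cells (right), for each library with 95% counting intervals. Mthfd2 stands highest in the effector comparison at 0.60 and 0.37, and the phase comparison lies nearer 0, with Shmt1 highest in the library labelled wild type at 0.19.

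Cells that were low for the chromosomes of these genes were looked at last. Among cells with at least 4000 UMIs, 1794 and 1866 held a share of UMIs of at most 0.8 times the median on chromosome 6, where Asns and Mthfd2 lie, and 1507 and 599 on chromosome 11, where Shmt1 lies. The counts of Asns and Mthfd2 are part of the chromosome 6 share, and those of Shmt1 of the chromosome 11 share. Their levels are therefore not compared in the cells chosen by their own chromosome. Of the genes on other chromosomes, Psph was at 94.4 and 106.0 CPM in the cells low for chromosome 6. In the others it was at 74.7 and 84.3 CPM, a log2 ratio of 0.34 and 0.33. Phgdh had log2 ratios of 0.31 and 0.15, and Psat1 of 0.16 and 0.14. Mthfd1 (-0.01 and 0.04) and Mthfd1l (0.02 and 0.01) were level. Shmt2 (0.01 and -0.19), Shmt1 (-0.16 and -0.05) and Aldh18a1 (-0.11 and -0.21) were level or lower. At 0.25 or higher stood 2 and 1 of the 10 genes, beside 8.01% and 4.79% of all genes. In the cells low for chromosome 11, the log2 ratios were 0.35 and 0.21 for Psph and 0.27 and 0.23 for Phgdh. Asns was at -0.10 and 0.22 there, Mthfd2 at -0.19 and -0.0003, and Mthfd1 at 0.02 in each library. At 0.25 or higher stood 2 and 0 of the 10 genes, beside 14% and 14.4% of all genes, so this count is near the background. Without the cells that were low for either chromosome, the summed log2 difference between the libraries was 0.39.

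Lists of neighbouring pathways set these genes in context. Of all 7607 genes at the same minimum level, 3.13% were at 0.25 or higher and 4.67% at -0.25 or lower. Other folate and one-carbon enzymes did not follow: of 17 with a mean level of at least 10 CPM, none was at 0.25 or higher and 1 was at -0.25 or lower, with a median log2 difference of -0.05. That 1 was Ggh, which trims folate polyglutamates, at 13.1 and 10.3 CPM, and Mthfd2l, the second mitochondrial dehydrogenase of the Mthfd2 reaction, was at 18.3 and 15.4 CPM, a log2 difference of -0.248 (-0.35 to -0.15) that lay just outside the threshold. Dld, a subunit of the glycine cleavage system, was at 61.5 and 53.2 CPM. Purine synthesis enzymes, which use formyl groups, were also level: 1 of 12 was higher, Impdh1 (0.26), and none lower, with a median of -0.02, while Prps2 was at -0.23 and Ppat at -0.10. Among these 17 and 12 genes, Impdh1 alone was thus at 0.25 or higher, a count near the share of all genes. Under the minimum level, and named after their values were seen, Slc46a1 was at 6.53 and 8.19 CPM (0.33) and Aldh1l2 at 0.648 and 1.02 CPM (0.66).

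Genes of amino acid supply and of the Atf4 response did hold higher members, beside 3.13% of all genes at 0.25 or higher and 4.67% at -0.25 or lower. Atf4 itself was at 158.2 and 195.5 CPM, a log2 difference of 0.30 (0.27 to 0.34). Of 9 effectors besides Atf4, 3 were higher, Chac1 (15.0 and 25.5 CPM, 0.77), which degrades glutathione, Trib3 (8.82 and 13.7 CPM, 0.63), and Eif4ebp1 (373.0 and 484.5 CPM, 0.38), and 2 were lower, Ddit4 and Cebpb. Ddit3, under the minimum level, was at 5.78 and 6.37 CPM, a log2 difference of 0.14 (-0.03 to 0.31) whose interval holds 0. Of the list's other genes under that level, Atf5 (0.10) and Pmaip1 (0.06) also had intervals that hold 0. Atf3 (0.60), Nupr1 (0.57), Vldlr (0.50) and Stc2 (0.30) had intervals above 0. Of 16 other amino acid synthesis enzymes, 2 were higher, Bcat1 (0.50) and Gpt2 (0.27), and 1 lower, Gatm (-0.39), with a median of 0.09.

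Of 9 amino acid transporters, 4 were higher and none lower, beside 3.13% and 4.67% of all genes, with a median of 0.18. They were led by Slc1a4, a carrier of alanine, serine and cysteine, at 18.5 and 28.7 CPM (0.64), Slc7a1 (0.47) and Slc3a2 (0.35). Of 20 cytosolic aminoacyl-tRNA synthetases, 6 were higher and none lower, beside the same shares of all genes, with a median of 0.15. Sars, the synthetase that charges serine, was at 102.4 and 138.4 CPM (0.43), beside Aars (0.43) and Cars (0.36). These lists were drawn up with results of these data known, so their counts are descriptions.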

How the data were processed

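The authors deposited raw UMI counts per gene and barcode, with all 6794880 possible barcodes listed, from 10x Genomics 3′ libraries, per the labels. The submitters' processing notes name STARsolo, STAR 2.7.9a, Seurat 5.1.0 and build mm10, and the labels' protocols name Cell Ranger 8.0.1. The labels give 9238 and 11190 cells with medians of 5333 and 5398 genes, against 3275 and 2884 genes in the cells kept here, so the deposited counts may not be those behind the labels' statistics.

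The members and lists were chosen with earlier results of these data known. Samples were grouped by the genotype given in their labels. Of 8772 and 10613 barcodes with at least 2500 UMIs, 1 and 0 had too few genes and 64 and 26 exceeded the mitochondrial limit. Doublets were not removed in the values reported; removing the highest Scrublet scores at 0.8% per 1000 cells was an alternative. Counts were summed per library, and with 1 library per group no test was made. Intervals are exact Poisson for levels, exact conditional for ratios and Clopper-Pearson for shares. The mean stress ratio over the libraries has the average of their bounds instead. Only the interval of a ratio between the libraries was tried on simulated data. Those counts were drawn from the Poisson model that the interval assumes, without the wider spread between real cells, so the trial does not cover that spread. Genes were compared at a mean CPM of at least 10. Cells were clustered with scanpy 1.11.5 (Leiden, 2000 variable genes, 30 components, 15 neighbours, resolution 0.5) without the 10 genes, Sp5, Sp8, and genes that are Y-linked, mitochondrial, ribosomal or of the cell cycle. Clusters were named by hand, after their genes were seen, from the number of markers of each cell class that were at least 1.5-fold higher than in the other cells. The named clusters had 6 to 8 such markers of 1 class. Cluster 4 had 3 primitive streak markers and was left unnamed, since its leading genes held 1 marker each of the streak, caudal and primed epiblast classes. Stress and dissociation lists named no cluster. No cluster had most of Ddit3, Pmaip1, Trib3, Chac1 and Atf3 among its 10 leading genes, so cells were split by a thinned effector UMI, as laid down for that case. Besides the 10 genes, the text names Sp5, Sp8, Atf4, Ddit3, Trib3, Chac1, the 3 genes of each list with the largest absolute log2 difference, the 10 genes most like the members' mean profile and cluster leading genes. Ddit4, Cebpb, Cer1, Slc46a1 and Aldh1l2 were named after their values were seen. TMM scaling used edgeR 4.0.16 on the library sums.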

Additional observations from a re-analysis of the deposited data

How the results depend on the processing

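The direction between the libraries was the same under every alternative run for the summed level of the 10 genes, their median and the mitochondrial over cytosolic ratio. Phgdh, Psat1, Shmt2, Mthfd2 and Asns were past 0.25 in 18 of 18 settings. The summed log2 difference of 0.38 became 0.408 with TMM scaling, 0.396 with median-of-ratios scaling, 0.332 with equal cluster shares, 0.392 without cells low for chromosome 6 or 11, 0.349 in S phase and 0.402 in G2/M cells. Taking clusters alone was added after seeing the data: in clusters 1 to 6 it was 0.308, 0.355, 0.289, 0.423, 0.452 and 0.604. The median over the 10 genes was 0.25, 0.204, 0.343, 0.390 and 0.343 in clusters 1, 3, 4, 5 and 6. The count of genes past the threshold was 8 in cluster 6 and 3 at a threshold of 0.5. The mitochondrial over cytosolic difference was 0.487 after thinning, 0.374 with equal cluster shares, and 0.376, 0.371, 0.379 and 0.570 in clusters 1, 2, 3 and 5. The stress comparison, a mean of 0.269 over the libraries, was 0.314 after thinning. It was 0.207, 0.165, 0.366 and 0.0561 in clusters 1, 2, 5 and 6, where the averaged bounds of the last hold 0. For the small cluster with Ddit3 among its leading genes in place of effector UMIs it was 0.238 (chosen after seeing the data). At resolution 0.3 it was 0.150, and without the lists among the variable genes 0.136, with averaged bounds that hold 0. The cause of each move was not tested. For single genes, 123 values stayed within their counting interval and 57 left it, with 0 sign changes of a gene past the threshold. No paired analysis was possible because each genotype has 1 library. With 1 library per genotype, depth limits only the counting error, and the variation between cultures is unknown.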
